A study of Caenorhabditis elegans with 4 samples.

Results

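The MRG-1 peaks on the arms of chromosome III of Caenorhabditis elegans were those peaks of the series-wide list whose midpoint lay below 3.45 Mb or above 10.33 Mb on that chromosome. They numbered 1445 of the 12147 peaks in that list, 587 of them on the left arm and 858 on the right, while the centre of III between these limits held 1414. In the list of replicate 1, 141 peaks fell on the left arm and 192 on the right, and in the list of replicate 2 the numbers were 155 and 249. Positions are those of WormBase WS220, and the right arm was taken to end at the last base under any peak, 13774858, which left out 2 protein-coding genes beyond it.

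The series mapped MRG-1 by chromatin immunoprecipitation and sequencing in whole hermaphrodites of the strain fem-2(b245), a mutation in the sex determination gene fem-2, which itself lies on III. The animals were kept at 20 °C and carried a germline. Their stage is given as young adult in the sample labels, whereas the growth protocol speaks of gravid animals. An affinity-purified rabbit polyclonal antibody, SDQ4068, was used on 2 ChIP samples, and 2 input samples of the same strain and stage served as the unprecipitated DNA. All 4 samples carried the same allele and none was wild type, so no peak can be set against its absence in another genotype, and germline and somatic nuclei were not separated. Separate cultures are not stated for the replicates, and their spread may therefore be technical. No values of the input samples were used, so there is no background measured the same way. The lists hold no read counts and the depth behind each peak is unknown.

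MRG-1 is a chromodomain protein of the family of human MRG15, whose chromodomain binds histone H3 methylated at lysine 36, a mark left along transcribed gene bodies. In C. elegans it is supplied by the mother and is needed for the development of the germline. The autosomes of this worm have a gene-rich centre with housekeeping and germline genes, and arms with more repeats and with large families of receptor, F-box and other fast-changing genes.

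The replicate lists differed in ways that touch every value on the arms. Replicate 1 peaks were wider, with medians of 3022 bp on the left arm and 3752.5 bp on the right, against 1406 and 1683 bp in replicate 2. The series-wide list cut the same regions into finer pieces, with medians of 340 and 379.5 bp. Replicate 1 also lacked any peak in some broad regions that replicate 2 called. Of the regions of at least 10 kb made by joining series-wide peaks over gaps of up to 1 kb, 25 of 90 in the centre had no replicate 1 peak, against 1 of 15 on the left arm and 2 of 32 on the right. The part of depth in these differences was not tested.

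Peaks covered more of the right arm than of the left in both replicates. In replicate 1 they lay over 18.2% of the left arm and 29.8% of the right. In replicate 2 the coverage was 10.2% and 18.8%. The means were 14.2% ± 5.68 for the left arm and 24.3% ± 7.83 for the right (SD, n = 2 each), and the series-wide list gave 14.4% and 22.6%. The replicates differed in level, so that the right arm of replicate 2 stood close to the left arm of replicate 1, but within each library the right arm was the higher. The right to left ratio was 1.64 in replicate 1 and 1.84 in replicate 2, a mean of 1.74 ± 0.142 (SD, n = 2), or 0.79 ± 0.12 on the log2 scale. A two-sided exact sign-flip permutation test over the 2 replicates gave p = 0.5, which is the smallest value this design allows, so no call is possible.

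The arms stood differently to the centre of III in the 2 replicates. The left arm was covered less than the centre in both, at 0.632 times the centre in replicate 1 and 0.321 times in replicate 2. The right arm was level with the centre in replicate 1, at 1.03 times, and below it in replicate 2, at 0.590 times. The centre itself was covered to 28.9% and 31.8%. Leaving out the 4 wide regions on the arms that had no peak in one replicate kept the right to left ratio at 1.78 ± 0.251 (SD, n = 2), an alternative chosen after the data were seen.

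**Figure D1:**
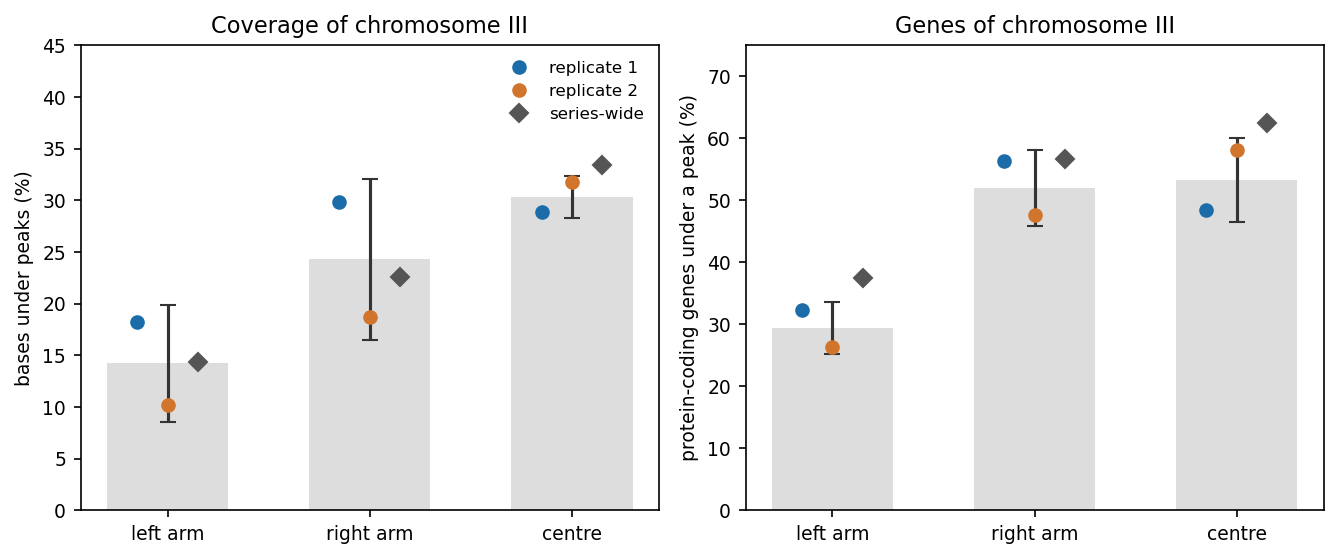
Percent of bases under peaks (left panel) and percent of protein-coding genes overlapped by a peak (right panel) for the left arm, right arm and centre of chromosome III. Bars are the mean of the 2 replicates with the SD, circles the replicates and diamonds the series-wide list; coverage of the right arm (29.8% and 18.8%) lies above that of the left arm (18.2% and 10.2%) in each replicate.

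The difference between the arms was not matched by a difference in gene density. The left arm held 534 protein-coding genes, or 155 per Mb, and the right arm 550, or 159.7 per Mb. Gene bodies took up 68.9% of the left arm and 71.0% of the right, and the median gene was 2784 bp and 2985.5 bp long. The centre was denser, with 1556 genes or 226 per Mb. Gene positions came from a gene table on the WBcel235 build and were taken to lie within about 200 bp of WS220. A shift of all genes by that distance to either side changed the series-wide call of 7 genes on the left arm and 10 on the right.

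More genes lay under MRG-1 peaks on the right arm. A series-wide peak overlapped, by at least 1 bp, 200 of the 534 left arm genes and 312 of the 550 right arm genes. These were 37.5% (exact Clopper-Pearson 95% interval 33.3 to 41.7) and 56.7% (52.5 to 60.9), against 32.7% of all protein-coding genes in the table and 62.5% in the centre of III. The intervals cover counting error only, and neighbouring genes often share a peak. In replicate 1, 173 left arm genes and 310 right arm genes had a peak, 32.4% and 56.4%, against a background of 30.2%. In replicate 2 there were 141 and 262, 26.4% and 47.6%, against 28.1%. The left arm thus stood near the background of the whole table in each list, and the right arm above it. That table includes the X chromosome. Over the autosomes alone the shares were 36.4% in the series-wide list, 33.6% in replicate 1 and 32.3% in replicate 2. The left arm was below these in both replicates and above in the series-wide list. Over the autosome arms other than III they were 25.6%, 24.6% and 21.2%, and the left arm was above each. Over the replicates the mean share was 29.4% ± 4.24 on the left arm, 52.0% ± 6.17 on the right and 53.3% ± 6.82 in the centre (SD, n = 2 each).

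Counting only genes with a peak in both replicates, 126 genes remained on the left arm and 246 on the right. That was 23.6% and 44.7%, against 24.4% of all protein-coding genes and 43.7% in the centre. Over the autosomes alone it was 28.1%, and over the autosome arms other than III 20.0%. At the other end, 325 left arm genes (60.9%) and 219 right arm genes (39.8%) met no peak in any of the 3 lists. Peaks also took in a larger share of the genes they met on the right arm. Among the genes met by a series-wide peak, the median share of the gene body covered was 45.6% on the left arm, 70.8% on the right and 96.7% in the centre. These genes differed in length as well, with medians of 4447, 3268 and 2082 bp. The share of the body was not compared within length classes. At least 50% of the body was covered in 94 genes of the left arm and 189 of the right.

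Gene length entered differently on the 2 arms. Longer genes meet a 1 bp overlap more easily, and on the left arm the genes under a series-wide peak had a median length of 4447 bp, against 2230.5 bp for the rest. The medians of the right arm were closer, at 3268 and 2777.5 bp. Genes were therefore also compared within length classes, with limits at 1449 and 2876 bp. Of the short genes 23.4% were under a series-wide peak on the left arm and 50.4% on the right. The shares were 29.3% and 57.6% in the middle class and 49.2% and 59.2% among the long genes. In the centre they were nearly level, from 61.5% to 64.1%. The right arm was higher in every length class, and by the least among the long genes.

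On both arms the peaks lay mostly inside gene bodies. Of the bases under replicate 1 peaks, 85.8% on the left arm and 83.7% on the right were within protein-coding genes, and in replicate 2 the shares were 85.1% and 85.5%. Gene bases were covered 2.73 and 2.57 times as often as other bases on the left arm in replicates 1 and 2, and 2.09 and 2.41 times as often on the right. Of the series-wide peaks, 31 on the left arm (5.28%) and 68 on the right (7.93%) met no protein-coding gene, and 490 and 678 met exactly 1. Peaks over at least 2 genes made up a smaller share on the arms than in the centre, at 66 (11.2%) on the left, 112 (13.1%) on the right and 326 (23.1%) in the centre. The difference from the centre was not tested.

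Along each arm the coverage was uneven. In bins of 250 kb counted from the chromosome end, 14 on each arm, the mean of the replicates ran from 7.18% through a median of 14.2% to 22.0% on the left arm. The right arm ran from 12.2% through 23.9% to 41.9%. Replicate 1 was the higher in 27 of the 28 bins. The exception was the left arm bin from 750001 to 1000000, with 19.0% in replicate 1 and 25.0% in replicate 2, which holds the widest joined region of that arm. The highest bins of the right arm were the innermost, from 10330001 to 10524858, at 48.0% and 35.8%, and the one from 13274859 to 13524858 near the outer end, at 49.6% and 25.2%. The bins in the first 750 kb of the left arm were all below its median by the mean of the replicates, from 9.92% to 14.2% in replicate 1 and from 4.45% to 6.99% in replicate 2.

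Coverage of a bin was only loosely related to its gene density. The correlation of genes per Mb with the mean coverage had r = 0.30 and rho = 0.47 over the 14 bins of the left arm, and r = 0.55 and rho = 0.37 over the 14 of the right. These values describe bins of the same 2 libraries and carry no test. The bin from 1250001 to 1500000 on the left arm had 54 genes, or 216 per Mb, of which 9 lay under a series-wide peak. The right arm bin from 12524859 to 12774858 had 21 genes, or 84 per Mb, of which 15 did. The levels of the replicates over all 28 bins had r = 0.82 and rho = 0.82. Within the left arm it was r = 0.46 and rho = 0.72, and within the right arm r = 0.83 and rho = 0.82.

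**Figure D2:**
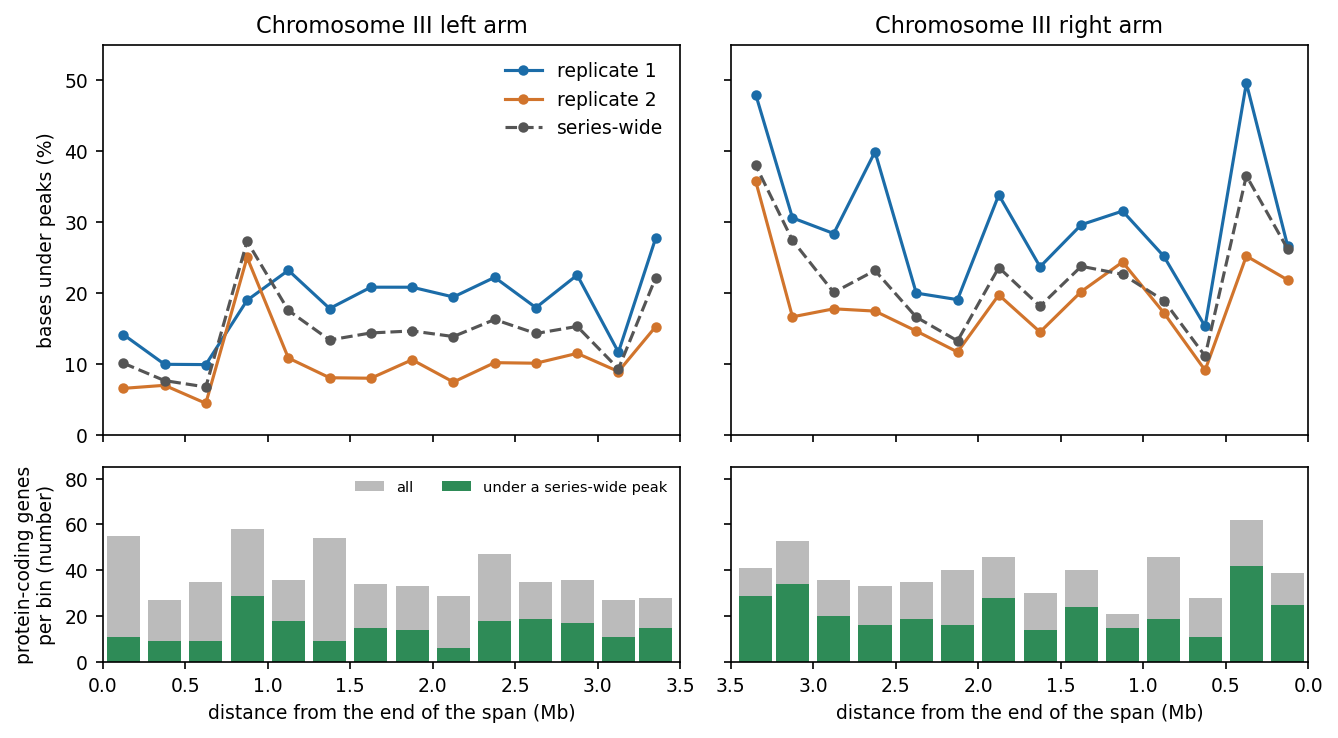
Percent of bases under peaks (upper panels) and number of protein-coding genes (lower panels, grey all genes, green those under a series-wide peak) in 250 kb bins of both arms of III, by distance in Mb from the end of the span analysed. Lines are replicate 1, replicate 2 and the series-wide list; mean coverage runs from 7.18% to 22.0% on the left arm and from 12.2% to 41.9% on the right.

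The genes of 14 lists of general cell and germline functions were nearly all under peaks on the arms. Over these lists, a series-wide peak met 14 of the 15 members on the left arm and 35 of the 36 on the right, against 716 of 752 (95.2%) over all chromosomes. In both replicates it was 12 and 29, against 587 of 752 over all chromosomes. The 2 without a series-wide peak were gtf-2H5, a subunit of the transcription factor TFIIH, on the left arm and sid-2, which takes up double-stranded RNA in the intestine, on the right. Each list has few members on an arm and goes by gene name, so genes of like function under other names are not counted. The lists were chosen with earlier results of these data known. The 14 do not include the lists of sperm, major sperm protein, histone and sex determination genes. Over all chromosomes series-wide peaks met fewer of these, at 14 of 66, 0 of 31, 23 of 72 and 16 of 25.

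Among the genes of protein synthesis, the 3 cytoplasmic ribosomal protein genes of the arms, rps-15A, rps-27A and rps-29 on the left arm, were covered over 100% of their bodies in both replicates. Of the mitochondrial ribosomal protein genes, mrpl-40 was covered to 100% and 71.7% in replicates 1 and 2 and mrpl-45 to 100% and 59.2%, both on the left arm. Another on that arm, mrpl-30, had no replicate 1 peak and 17.4% under a replicate 2 peak. The right arm genes mrpl-12 and mrps-10 stood at 100% in both and mrpl-22 at 78.6% and 40.9%. Also on the right arm, ife-1, a form of the cap-binding factor eIF4E found in the germline, stood at 100% in both. The asparaginyl-tRNA synthetase gene nars-2 of the same arm had a series-wide peak over 10.0% of its body and no peak in either replicate.

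The genes of RNA processing and nuclear transport were under peaks on both arms, with gaps in replicate 2. The SR protein gene rsp-3 and the small nuclear ribonucleoprotein gene snr-6, both on the right arm, were covered to 100% in both replicates. The spliceosome gene prp-3 had 98.2% in replicate 1 and no peak in replicate 2, and the SR protein gene rsp-8 had 100% and 73.1%. On the left arm uaf-1, the large subunit of the splicing factor U2AF, had 46.2% and 4.29%. Among nuclear pore genes npp-16 was at 100% in both, npp-25 at 99.6% and 56.3%, and both npp-18 on the right arm and npp-9 on the left at 100% in replicate 1 with no replicate 2 peak. The proteasome ATPase gene rpt-6, on the right arm, was at 100% in both.

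All 6 genes of the list of general transcription on the right arm had a series-wide peak, against 64 of 69 (92.8%) over all chromosomes. By series-wide peaks the best covered of the 6 were the TFIID subunit genes taf-11.3, taf-9 and taf-7.2. Their coverage was 100% and 100%, 100% and 75.8%, and 87.5% and 88.2% in replicates 1 and 2. On the left arm the Mediator gene mdt-19 had 38.7% and 34.1%. In cell division genes the picture was similar. The origin recognition gene orc-1 on the right arm was at 100% in both replicates and orc-4 at 71.6% and 80.9%, while orc-3 on the left arm was at 32.1% and 32.6%. The ubiquitin ligase scaffold genes cul-1 and cul-2, on the right arm, were at 100% and 98.4%, and at 100% and 63.1%. The anaphase-promoting complex gene mat-3 had 27.5% and 51.7% and the DNA polymerase eta gene polh-1 97.0% and 28.3%, both on the left arm. The lowest was zyg-8, a microtubule-associated kinase gene of the right arm, with 6.86% in replicate 1 and no replicate 2 peak.

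Germline genes on the arms also lay under peaks. The right arm gene pie-1, which keeps transcription off in the germline blastomeres, was covered to 100% in both replicates, and atx-2, the ataxin-2 gene that acts in germline translation, likewise. The meiotic genes exo-1, an exonuclease that resects breaks, smc-3, a cohesin subunit, and com-1, the CtIP homologue, stood at 100% and 100%, 65.5% and 35.9%, and 77.5% and 8.13%. The crossover factor gene cosa-1, on the left arm, was at 36.1% and 21.7%, and the P granule helicase gene laf-1 of the same arm at 90.2% and 44.0%. Of 2 sperm genes, spe-6 on the right arm had 100% and 32.0%, whereas spe-41 on the left arm had no peak in any list. Over all chromosomes a series-wide peak met 14 of 66 sperm genes (21.2%).

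The chromatin regulator list had 6 members on the right arm and none on the left. All 6 had a series-wide peak, against 77 of 83 (92.8%) over all chromosomes. They included the target itself. The gene mrg-1 was covered over 100% of its body in both replicates and 96.4% in the series-wide list, and it lay in a joined region of 11496 bp, from 12870295 to 12881790, that was wholly under peaks in both replicates. That region also held spcs-2, cec-7, enu-3.5 and part of unc-71. The histone acetyltransferase gene hat-1 stood at 100% in both replicates, and so did the histone H3.3 gene his-72. The heterochromatin protein gene hpl-2 had 100% in replicate 1 and no replicate 2 peak.

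The gene mutated in the strain, fem-2, lay under peaks on the left arm, with 100% of its body in replicate 1 and 76.9% in replicate 2, a mean of 88.4% ± 16.3 (SD, n = 2). Its joined region ran from 631981 to 647763. Another sex determination gene, tra-1 on the right arm, the master switch of female fate, is a long gene of 24312 bp and had 22.0% and 8.71% under peaks.

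Receptor, secreted and tissue genes were mostly outside the peaks on both arms. Over 13 lists that include the F-box genes, 9 of 86 members on the left arm (10.5%) and 7 of 40 on the right (17.5%) met a series-wide peak, against 225 of 3044 (7.39%) over all chromosomes. Without the F-box genes it was 2 of 27 (7.41%) and 4 of 32 (12.5%), against 184 of 2722 (6.76%). None of the 12 genes of the chemoreceptor list on the arms had a peak in any list, among them srd-64, srd-65 and srd-66 on the left arm and srw-9, srw-10, srd-74, str-246 and str-261 on the right. The same held for the 8 genes of the collagen list, such as col-88 on the left and col-92, col-93 and col-94 on the right, and for the nuclear hormone receptor genes nhr-80, nhr-121, nhr-239 and nhr-280 of the left arm. It held as well for the 8 neuropeptide and insulin-like genes, which include flp-24 and ins-16 on the left arm and flp-14 and nlp-21 on the right. The C-type lectin genes clec-148, clec-149, clec-150 and clec-163, the cytochrome P450 genes cyp-13A11 and cyp-13A12, and 8 ion channel genes, among them lgc-42, twk-45, lgc-37 and kvs-4, had no peak either. Series-wide peaks met few genes of these lists over all chromosomes too. The shares were 2.06% for chemoreceptor, 11.5% for collagen, 7.81% for nuclear hormone receptor and 8.84% for neuropeptide and insulin-like genes. They were 4.18% for C-type lectin, 4.26% for cytochrome P450 and glucuronosyltransferase, and 9.66% for channel genes.

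Some tissue genes were exceptions. The myosin chaperone gene unc-45 of the left arm had 20.0% and 17.4% of its body under peaks in replicates 1 and 2, whereas pat-4 had 3.86% in replicate 1 alone and pat-12 none, both muscle attachment genes of the same arm. The gene unc-71 of the right arm, which encodes an ADAM protein, had 56.8% and 50.6% and lies partly in the joined region of mrg-1 named above. The other neuron genes of that arm, unc-119, unc-25 and unc-64, had no peak, nor did the tubulin gene mec-12 on the left. The intestinal gene spp-1, on the right arm, was at 100% in both replicates, and act-5 had none. The 3 homeobox genes named ceh on the arms had a series-wide peak over part of their bodies, ceh-44 on the left at 12.6%, and ceh-91 and ceh-92 on the right at 9.17% and 26.6%, against 14 of 64 such genes (21.9%) over all chromosomes. The homeobox genes vab-7, nob-1 and php-3 of the right arm, outside that list and named after their values were seen, had no peak in any list.

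The arms held very unequal numbers of F-box genes, a large family of candidate substrate receptors for ubiquitin ligases. The left arm held 59 of them and the right arm 8. A series-wide peak met 7 on the left arm and 3 on the right, and a peak in both replicates met 0 and 2. Over all chromosomes 41 of 322 F-box genes (12.7%) met a series-wide peak. In that list the left arm, at 11.9%, was thus close to the family as a whole. A peak in both replicates met 24 of the 322, against 0 of the 59 on the left arm, a difference that was not tested. By series-wide peaks the best covered on the left were fbxa-11, fbxa-67 and fbxa-10. They had 100%, 63.2% and 58.1% in replicate 1 and nothing in replicate 2. The gene fbxa-13, lower by series-wide peaks, had 85.4% in replicate 1 and nothing in replicate 2. On the right the best covered by series-wide peaks were fbxb-24, fbxb-87 and fbxb-85. They had 100%, 79.2% and 63.8% in replicate 1 and 0%, 20.9% and 50.9% in replicate 2. Without the F-box genes, an alternative chosen after the data were seen, 40.6% of the left arm genes and 57.0% of the right arm genes were under a series-wide peak. Genes in none of the lists stood at 40.8% and 56.7%. The gap between the arms was narrower without the F-box genes and remained.

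**Figure D3:**
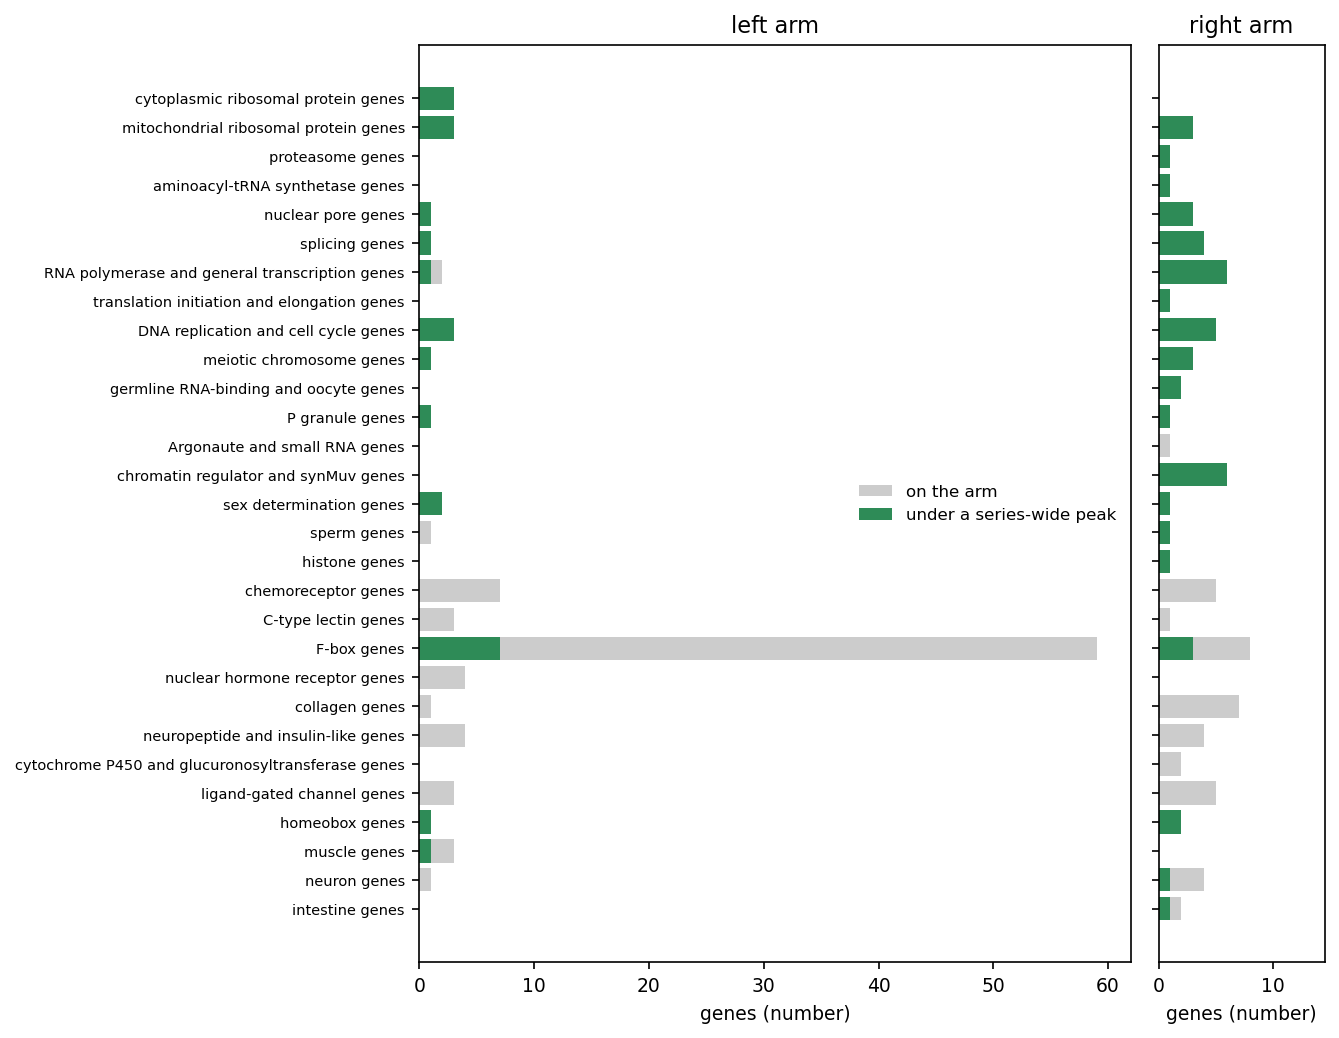
Number of genes of each list on the left and right arm of III (grey) and of those overlapped by a series-wide peak (green), for the lists with a member on an arm. The 14 lists grouped as general cell and germline functions are green nearly throughout (14 of 15 and 35 of 36), while 7 of 59 F-box genes on the left arm and none of the 12 chemoreceptor genes are.

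Most genes that make no protein lay outside the MRG-1 peaks on the arms, with exceptions. Of the 50 pseudogenes on the left arm 3 met a series-wide peak, and of the 26 on the right arm 7 did, against 208 of 1921 (10.8%) over all chromosomes. The left arm also held 30 transfer RNA pseudogenes and the right arm 3, none of them under a series-wide peak. Of the transfer RNA genes 1 of 13 on the left arm and 3 of 14 on the right had one, against 7.19% over all chromosomes. Small nucleolar RNA genes, which often lie in introns of other genes, stood higher, with 5 of 13 and 8 of 12, against 41.3% of all. Long noncoding RNA genes had 0 of 13 and 4 of 8, against 13.4% of all. Of the listed piRNA genes, 2 of 16 and 4 of 10 had a series-wide peak, against 0.592% of all. In the centre of III it was 16 of 52 (30.8%), so the arms were not apart from the rest of III in this. The microRNA genes went the other way, with 4 of 6 on the left arm and 0 of 6 on the right, against 16.5% of all. A peak in both replicates met 1 and 0 of them. The genes typed as ncRNA, the largest of these classes on the arms, were also somewhat higher on the left. A series-wide peak met 20 of 145 (13.8%) there and 15 of 150 (10.0%) on the right, against 9.88% of all. A peak in both replicates met 14 and 9 of these ncRNA genes. These differences between the arms were not tested.

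The 5 highest-scoring peaks of the left arm had scores from 59.16 to 63.89. The score is the authors' own and orders peaks within the series-wide list only. The peak at III:1616235-1623755, with a score of 63.89, ranked 7 of all series-wide peaks, tied with the next one. It covered hsp-60, the mitochondrial chaperonin gene, and Y22D7AL.10, and hsp-60 was at 100% in both replicates. The tied peak at III:1859068-1862039 met ddp-1, a mitochondrial import chaperone gene, with hlh-33 and ttc-7. The other 3 of the leading 5 were at III:3292854-3296762 over Y53G8AR.8 and Y53G8AR.6, at III:2783521-2788196 over the respiratory chain genes cox-6B and nduc-2 and Y71H2AM.20, and at III:1493731-1497523 over Y82E9BR.19, ave-1 and M01G5.1. Their scores were 60.54, 59.83 and 59.16.

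The 5 leading peaks of the right arm had scores from 57.42 to 59.47. The first, at III:13639728-13646788, lay over acbp-5, T12D8.10, drr-2 and set-16, a histone H3 lysine 4 methyltransferase gene of which 99.9% and 80.9% was covered in replicates 1 and 2. The second, at III:12685282-12690115, met elpc-2, an Elongator subunit gene, the splicing gene rsp-3 and spin-4. The others were at III:10433951-10437930 over smrd-1 and enu-3.1, at III:12903926-12907809 over the cytochrome c oxidase gene cox-5A, and at III:11007657-11010464 over the RNA exosome gene exos-1 and Y48A6B.3. All 10 of these peaks overlapped a peak in both replicates, which covered from 83.9% to 100% of each.

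At the limits that define the arms, the replicate peaks ran on without a break on the left side. The last left arm peak, III:3448000-3450499 with a score of 19.83, and the first centre peak, III:3450626-3451443 with 17.93, lay in the same gene, K01A11.3, and under the same peak of each replicate. On the right side the last centre peak, III:10329096-10329384, was 289 bp wide, had a score of 3.39 and no peak in either replicate, and lay in nex-2, an annexin gene. The first right arm peak, III:10330923-10337334, was 6412 bp wide with 23.56 and lay in both replicates, over T07C4.12, jmjd-4, mev-1 and the apoptosis inhibitor gene ced-9.

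Joined peaks formed broader regions over runs of neighbouring genes, and the right arm had more of them. Peaks of the series-wide list no more than 1 kb apart joined into 195 regions on the left arm, 254 on the right and 297 in the centre, with medians of 1422, 1398.5 and 5314 bp. Regions of at least 10 kb numbered 15 on the left arm and 32 on the right, and those of at least 20 kb 2 and 8. The median region was thus of about the same width on both arms, and the arms differed in the number of broad ones. Replicate 1 and replicate 2 peaks each covered at least 50% of 8 of the 15 and of 25 of the 32.

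The widest region of the left arm rested on replicate 2. It spanned 35731 bp, from 877177 to 912907, with 89.7% under replicate 2 peaks and none under replicate 1. Its 11 genes included sucl-2, a succinate-CoA ligase gene, ucr-2.3, a respiratory complex III gene, the cardiolipin synthase gene crls-1, zer-1, ztf-18 and bra-2. The next, from 3389622 to 3409836, had 94.6% in replicate 1 and 6.74% in replicate 2 and held the nonmuscle myosin light chain gene mlc-4, clpf-1 and npp-9 among 8 genes. The third, from 845564 to 863355, was shared, with 100% and 94.0%, and held the Arp2/3 gene arx-4, moma-1, rnp-5 and exos-4.2 among 7. So 1 of these 3 regions lay largely under peaks in both replicates.

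The widest regions of the right arm leaned on replicate 1. The first, from 13286245 to 13318379, spanned 32135 bp with 97.4% under replicate 1 and 25.0% under replicate 2 peaks. Its 8 genes included set-25, a histone H3 lysine 9 methyltransferase gene, klp-19, a chromosome-associated kinesin gene, and npp-18. The second, from 10736382 to 10764035, had 100% in replicate 1 and no replicate 2 peak over its 27654 bp, and held 12 genes, among them the tubulin gene tbb-1, ran-1, which drives nuclear transport, the dyskerin gene dkc-1, hpl-2, and the condensin gene dpy-28. The third, from 13448113 to 13475518, had 98.7% and 58.1% and held cua-1, abcf-2, ant-1.1 and cdk-5 among 9 genes. The region nearest the right end, from 13755418 to 13774694, had no replicate 1 peak and 94.0% under replicate 2 peaks, with the centralspindlin gene cyk-4 and pdr-1, the parkin gene, among its 7 genes. It was named after its values were seen.

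Stretches without any peak took up more of the left arm. Those of at least 50 kb with no peak in any list numbered 15 on the left arm, where they made up 36.2% of the bases, 8 on the right (18.7%) and 15 in the centre (15.7%). The longest, 162 kb from 1243647 to 1406008 on the left arm, held 45 protein-coding genes, 25 of them F-box genes, and 12 pseudogenes. The others there included pals-16, pals-17, pals-19, pals-20, pals-21 and pals-40, of a family with members induced by intracellular pathogens. The next on the left arm, 137 kb from 1963178 to 2100565, held 17 genes, among them dpy-1, which shapes the cuticle, the chemoreceptor gene srd-66, lgc-42 and ins-16. These stretches were thus not empty of genes.

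On the right arm the longest stretch without a peak, 143 kb from 11345303 to 11488313, held 16 genes. They included dpy-18, a collagen prolyl hydroxylase gene, sbp-1, the lipid regulator SREBP, the neuropeptide gene nlp-21 and the potassium channel gene twk-31. The next, 122 kb from 12981287 to 13103355, held 17, with col-97, col-98, cyp-13A11, cyp-13A12 and the transporter gene snf-7.

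A smaller share of the left arm peaks was found again in the replicates. Of the 587 series-wide peaks there, 177 overlapped a peak in both replicates, or 30.2% (exact 95% interval 26.5 to 34.0). On the right arm it was 349 of 858, or 40.7% (37.4 to 44.0), and in the centre 717 of 1414, or 50.7% (48.1 to 53.3), against 44.5% of the whole list. Most of the rest was seen in replicate 1 alone, 258 peaks (44.0%) on the left arm and 337 (39.3%) on the right, against 30 and 39 in replicate 2 alone. In neither replicate were 122 (20.8%) on the left arm and 133 (15.5%) on the right, against 13.6% of the list. In the centre the peaks of 1 replicate were about evenly split, with 266 in replicate 1 alone and 301 in replicate 2 alone. Since that list may rest on the same reads as the replicate lists, the shares are a description only.

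Support rose with the score throughout on the right arm. On the left arm it was lower in the 25% next to the lowest than in the lowest 25%, and rose above that. Among peaks in the top 25% of the whole list by score, 86 of 109 on the left arm (78.9%) and 145 of 184 on the right (78.8%) lay in both replicates, so the arms were level there. In the lowest 25% it was 17.4% and 17.1%. Between these the arms parted, with 28.7% on the left and 44.5% on the right in the 25% below the top, and 13.7% and 27.6% in the 25% below that. The left arm also had fewer peaks in the top 25%, 18.6% of its own against 21.4% on the right and 32.2% in the centre. Peaks in both replicates were wider, with medians of 931 bp on the left arm and 742 bp on the right, than those in neither, at 231 and 224 bp, and wider peaks meet an overlap more easily.

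**Figure D4:**
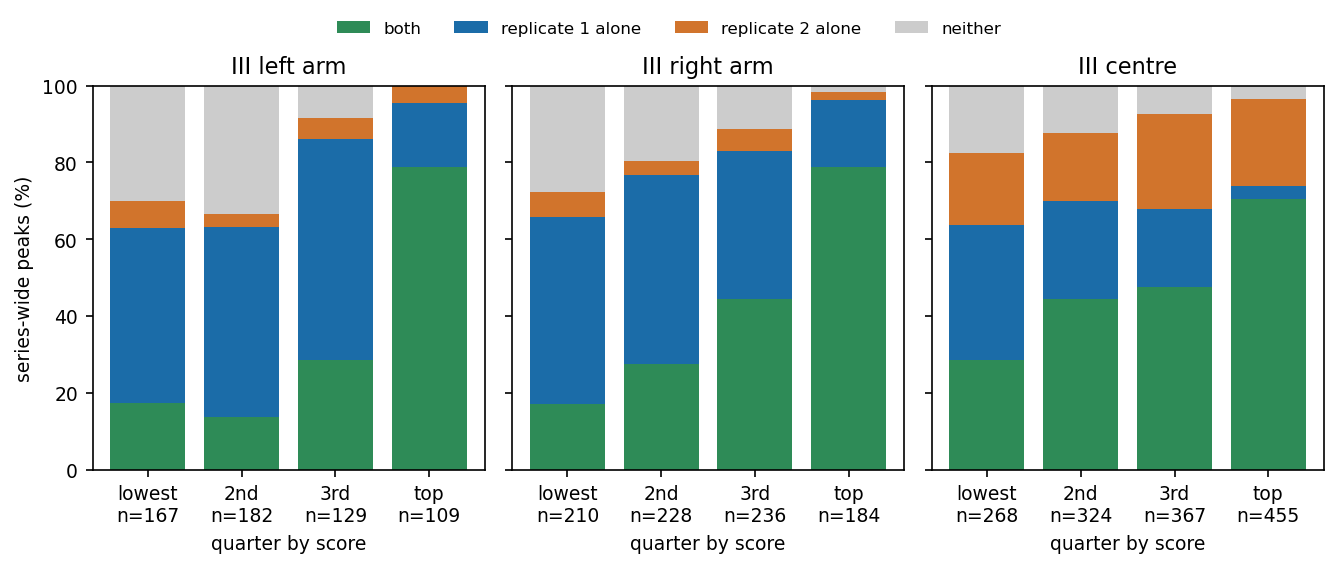
Percent of series-wide peaks of the left arm, right arm and centre of III that overlapped by at least 1 bp a peak in both replicates, in replicate 1 alone, in replicate 2 alone or in neither, in 4 classes by score, each about 25% of the whole list, with the number of peaks under each bar. In the top class 78.9% and 78.8% of the peaks of the arms lie in both replicates, and in the class next to the lowest 13.7% on the left and 27.6% on the right.

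Set directly against each other, the replicate lists shared more on the right arm in 1 direction. Of replicate 1 peaks, 86 of 141 on the left arm (61.0%), 137 of 192 on the right (71.4%) and 214 of 230 in the centre (93.0%) overlapped a replicate 2 peak. Of replicate 2 peaks the shares were 81.3%, 82.7% and 73.6%. Bases under peaks in both came to 289 kb on the left arm, which is 46.0% of the replicate 1 and 82.1% of the replicate 2 bases. On the right arm they came to 567 kb, or 55.1% and 87.7%. On the arms replicate 2 was thus mostly nested in replicate 1, whereas the centre held replicate 2 regions that replicate 1 lacked.

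Among the 10 arms of the autosomes, taken as the outer 25% on each side, the right arm of III was the most covered in both replicates. The next was the left arm of I, with 23.8% and 15.6%. The left arm of III ranked 5 of 10 in replicate 1 and 6 of 10 in replicate 2, close to the left arm of IV, with 18.1% and 11.0%. By gene density the right arm of III ranked 7 and the left 8, and over the 10 arms coverage went with gene density at r = -0.63 and rho = -0.58, a description over arms of the same libraries. By the share of genes under a series-wide peak the right arm of III ranked 2 with 56.7%, after the left arm of I with 58.5%, and the left arm of III ranked 4. The arms of the other autosomes together stood at 25.6%. The right to left ratio was above 1 on II as well, with 1.68 and 2.15 in replicates 1 and 2, and below 1 on I, IV and V in both. These differences were not tested, and an exact test over 2 replicates could not go below p = 0.5.

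**Figure D5:**
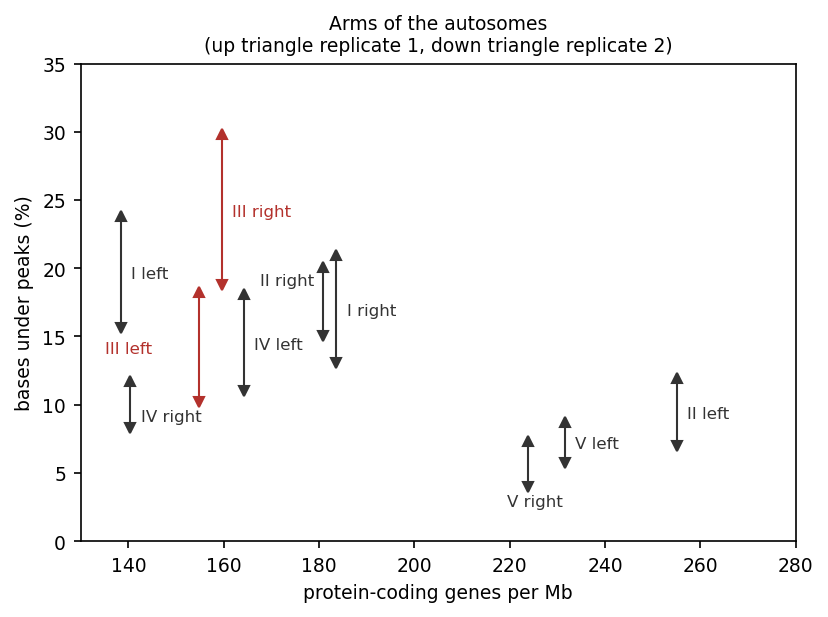
Percent of bases under peaks against protein-coding genes per Mb for the outer 25% on each side of the 5 autosomes, with replicate 1 as the upward and replicate 2 as the downward triangle of each arm. The right arm of III is at the top in both replicates (29.8% and 18.8%) at 159.7 genes per Mb, and the 3 arms with the highest gene density lie between 7.37% and 12.0% in replicate 1.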

How the data were processed

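MRG-1 ChIP peaks of 2 replicates and a series-wide list were used. Per the submitters' processing notes BWA and ce10 served for alignment; peaks came from MACS in the replicates and MACS v2 in the series-wide list on WS220, per the file headers and source columns. No source used here gives thresholds, duplicate handling, use of the input or pooling. The score deposited by the authors for each peak is not defined there and only ranked peaks within a list.

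Coverage counts bases that lie under any peak, as a percent. Genes were placed by their midpoint in the RefSeq gene table of WBcel235, and overlaps needed 1 bp. In overlapping genes a peak counts for each. Shares carry exact Clopper-Pearson 95% intervals for counting error only. No sequence was available, so none is shown. The members and the 31 gene lists were chosen with earlier results of these data known. Named are the 5 highest-scoring peaks, 3 widest joined regions and 2 longest peak-free stretches of each arm, peaks next to the limits, mrg-1, fem-2, and list members (all where 5 or fewer lay on an arm, otherwise the 3 best covered). Of the neuropeptide and insulin-like genes and the ion channel genes, which had no peak on the arms, only some are named. Alternatives were other limits, lists, score and overlap thresholds, gene sets and gene shifts. Scripts were tested on simulated data. Software was matplotlib 3.10.9, scipy 1.17.1, pandas 2.3.3 and numpy 2.4.6 on Python 3.11.15.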

Additional observations from a re-analysis of the deposited data

How the results depend on the processing

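Of the 67 alternatives, 43 stayed within 1 SD over the replicates, within the interval of a share, or, for peak numbers, within 1.5 times. With 2 replicates, leaving 1 out always keeps a coverage or the ratio within 1 SD. Those settings were therefore bound to stay and say nothing on stability. A value of 1 arm has no direction, so the direction was checked only for the ratio and the gene shares. The right to left coverage ratio was above 1 in all 9 alternatives run, and the gene share was higher on the right arm in all 11. Without one replicate the ratio ranged from 1.64 to 1.84, left arm coverage from 10.2% to 18.2%, right arm coverage from 18.8% to 29.8%, the left arm gene share from 26.4% to 32.4% and the right arm gene share from 47.6% to 56.4%. The ratio was 1.55 for the outer 30% of the span, 1.57 in the series-wide list and 1.96 for bases in both replicates. With the top 50% of each replicate list by score, right arm coverage was 15.1% and support in both replicates 13.8% on the left arm and 16.6% on the right. With the top 50% of the series-wide list, 238 and 420 peaks remained, gene shares were 31.8% and 50.7%, and support was 51.7% and 59.5%. Joining peaks left 195 and 254. Gene shares were 17.6% and 34.4% where 50% of the body had to be covered, 28.6% and 45.4% over all gene types, and 23.6% and 44.7% for peaks of both replicates. Support on the left arm was 26.2% where 50% of a peak had to be covered. Score and overlap thresholds count fewer peaks or bases by construction, and all gene types add genes. For the other settings the cause was not tested. The alternative on gene starts was not run, since the gene table gives no strand. No paired analysis was possible because ChIP and input share replicate numbers but no input values were used. The arms were compared within each replicate. Depth is unknown, so whether more reads would bring more left arm peaks cannot be read from these lists.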

Other observations

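Genes known only by a locus name had a lower share under a series-wide peak than genes with a symbol on both arms, a difference that was not tested, with 73 of 230 (31.7%) against 127 of 304 (41.8%) on the left and 96 of 211 (45.5%) against 216 of 339 (63.7%) on the right. The right arm was the higher in each class. The insulin receptor gene daf-2, a long gene of 46333 bp on the left arm chosen after its values were seen, had 1.86% and 2.21% of its body under peaks in replicates 1 and 2.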
